A study of Mus musculus with 12 samples.

Results

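CD31+ endothelial cells and CD324+ cells, the hepatoblast-rich fraction, were sorted from the same organ at the same age, and their RNA is compared here across all genes. The comparison takes 6 of the 12 libraries of the study, 3 of each population, all from C57BL/6 FL at E14.5. CD31+ cells were sorted as Ter119-CD45-CD54+CD31+ and CD324+ cells as Ter119-CD45-CD54+CD31-, so both gates removed erythroid and leukocyte surface markers, both kept CD54, and they differed by CD31 alone. The name CD324+ is the study's name for the E14.5 CD54+CD31- cells, and CD324 itself is not part of their labelled phenotype. P2 cells (Ter119-CD45-CD54-CD31-Kit+CD24+), erythroid progenitors of the same age with 3 libraries, entered the fit for its estimate of the spread and serve as a reference for levels. The study describes its replicates as independent litters, and whether the populations shared litters is not given in the sources used here. The libraries are bulk RNA of sorted cells, so fewer cells of a type and less RNA per cell cannot be told apart in any value below.

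Counts per library ranged from 50571764 to 56719068 in CD31+ cells and from 40714017 to 50359088 in CD324+ cells. Levels are CPM, counts scaled to the size of the TMM-adjusted library. Differences are log2 fold changes, CD31+ minus CD324+. Each standard error (SE) is the size of the log2 fold change divided by the square root of edgeR's quasi-likelihood F statistic. Mitochondrial genes held 13.6% of the counts of CD324+ replicate 1 and between 4.20% and 7.45% of the counts of the other 5 libraries. The gene of each sorting antigen was read first. *Pecam1*, which encodes CD31, had 555, 608, and 515 CPM in CD31+ and 3.99, 6.34, and 7.01 CPM in CD324+ libraries. *Icam1*, which encodes CD54, had 104, 91.7, and 140.2 CPM in CD31+ and 47.7, 49.6, and 50.8 CPM in CD324+ libraries, against 1.08, 3.81, and 2.32 CPM in P2 libraries. *Cdh1*, which encodes CD324, had 439, 417, and 464 CPM in CD324+ and 6.95, 5.51, and 5.55 CPM in CD31+ libraries. *Pecam1* and *Icam1* checked the gates and are no results, and the libraries of the 2 populations did not overlap for any of the 3 genes. *Ptprc*, which encodes the excluded CD45, had 7.75, 8.45, and 15.3 CPM in CD31+ and 8.48, 10.8, and 14.5 CPM in CD324+ libraries, and these values overlapped.

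The fetal liver is at this age the main site of blood formation. Hepatoblasts, the bipotent precursors of hepatocytes and bile duct cells, already secrete albumin, alpha-fetoprotein, and other plasma proteins, and they border a vascular bed that matures into sinusoids lined by scavenger endothelium. Vascular endothelial growth factor, Notch ligands, bone morphogenetic proteins, and hepatocyte growth factor are known to pass between the hepatic epithelium, the endothelium, and the mesenchyme of the growing organ. ETS and SOXF factors are well known regulators of endothelial genes, and HNF, FOXA, and C/EBP factors of hepatic genes.

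Most genes differed between the populations. Of the 15461 genes tested, 10150 (65.6%) passed edgeR's quasi-likelihood test at an adjusted p below 0.05, 4899 (31.7%) higher in CD31+ and 5251 (34%) higher in CD324+ cells. A call beyond 2-fold, by edgeR's glmTreat test at the same threshold, was made for 4590 genes (29.7%), 2354 (15.2%) higher in CD31+ and 2236 (14.5%) higher in CD324+ cells. These shares are the background for the counts of list members given below. The median log2 fold change over all genes tested was -0.03. For 10775 genes (69.7%) the 3 libraries of 1 population did not overlap those of the other. With at least 10 counts required in every library, which tests fewer genes, 3188 genes were called beyond 2-fold. Here and below, that filter leaves out any gene nearly absent from 1 population, so a lower count under it can mean genes not tested. Lists of genes with a known role were chosen with earlier results of these data known, and they are described by counts and medians with no test.

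**Figure D1:**
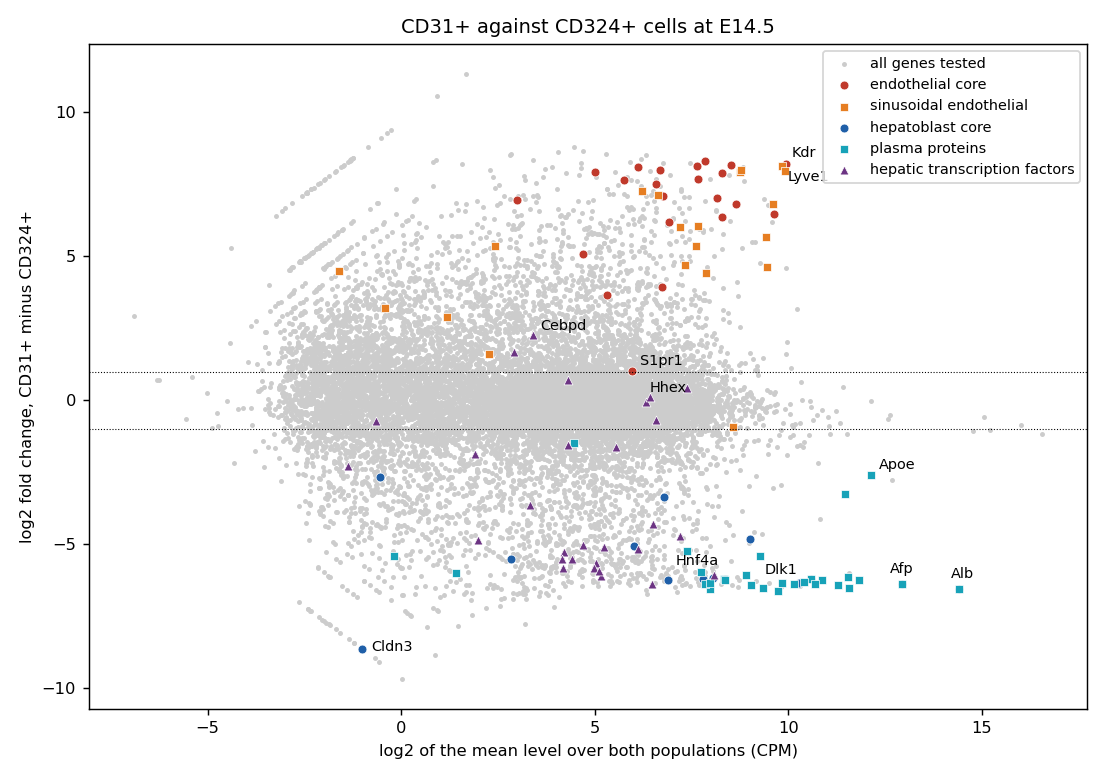
Log2 fold change of every tested gene (CD31+ minus CD324+, y axis) against the log2 of its mean level over both populations in CPM (x axis), with 5 gene lists in colour and dotted lines at a 2-fold difference. Core endothelial genes lie up to 8.32 above zero, and plasma protein genes lie around a median of -6.25, with *Apoe*, *Fn1*, and *Hp* nearer to zero.

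How the counting treated overlapping genes bears on which members can be read. Of 992 protein-coding genes that lie wholly inside the span of another gene, 975 (98.3%) had 0 counts in all 12 libraries of the study, against 2187 of 13886 (15.7%) that overlap no other gene. The share was 98.9% for 356 genes inside a gene of the same strand and 98.0% for 636 inside a gene of the other strand. Of the list and ligand or receptor genes, 18 lie inside another gene and all 18 had 0 counts in every library, among them *Angpt2*, *Ecscr*, *Lyl1*, *Serpina3k*, *Serpind1*, *Hpd*, *Alas2*, and *Adm*. A listed 0 for such a gene is not a measurement of its RNA, and these genes were not tested. Partial overlap may also lower a listed level. Other genes cover 99.9% of the span of *Apoc2*, 99.5% of *Trf*, 96.1% of *C2*, 94.9% of *C1s1*, 90.1% of *Nos3*, 89.4% of *Klkb1*, and 79.8% of *Clec4g*. Shares between 50% and 70% were found for *Afp*, *Hnf4a*, *Cebpb*, *Lmo2*, and *Mst1*, among others. How much of their level this leaves out was not tested. Whether reads outside exons were counted is not given in the sources used here. Ranks by level per kilobase of exon, given below for *Lyve1*, *Igf2*, and *Mest*, assume counts from exons alone.

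Core endothelial genes had the largest median difference of the gene lists. Of 24 core endothelial genes (junction proteins, angiogenic receptors, and granule proteins shared by most endothelia), 22 were tested, all 22 were higher in CD31+ cells and 21 were so beyond 2-fold, with a median log2 fold change of 7.31. *Kdr*, the main signalling receptor for VEGF-A, had 1841, 2046, and 1941 CPM in CD31+ and 3.42, 7.23, and 8.92 CPM in CD324+ libraries, a log2 fold change of 8.21 ± 0.76 (SE). *Cdh5*, the cadherin of endothelial junctions, had 1543, 1615, and 1512 CPM in CD31+ and 15.9, 12.4, and 24.7 CPM in CD324+ libraries (6.46 ± 0.71). No CD324+ library reached the lowest CD31+ library for either gene. *Clec14a*, an endothelial C-type lectin, had the largest difference of the list (8.32 ± 0.83), with 462, 523, and 399.9 CPM in CD31+ and 0.870, 1.52, and 1.89 CPM in CD324+ libraries. *Mmrn2*, which binds it in the endothelial matrix, differed by 8.13, and *Ptprb*, a phosphatase of the TIE2 and VE-cadherin complexes, by 8.17. The member with the smallest difference was *S1pr1*, a receptor of sphingosine 1-phosphate, with 74.7, 87.4, and 89.3 CPM in CD31+ and 38.9, 43.9, and 41.8 CPM in CD324+ libraries (1.01 ± 0.18, not beyond 2-fold). Over the 21 genes beyond 2-fold, the CD324+ level was a median 0.543% of the CD31+ level, and the highest was 7.90%.

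**Figure D2:**
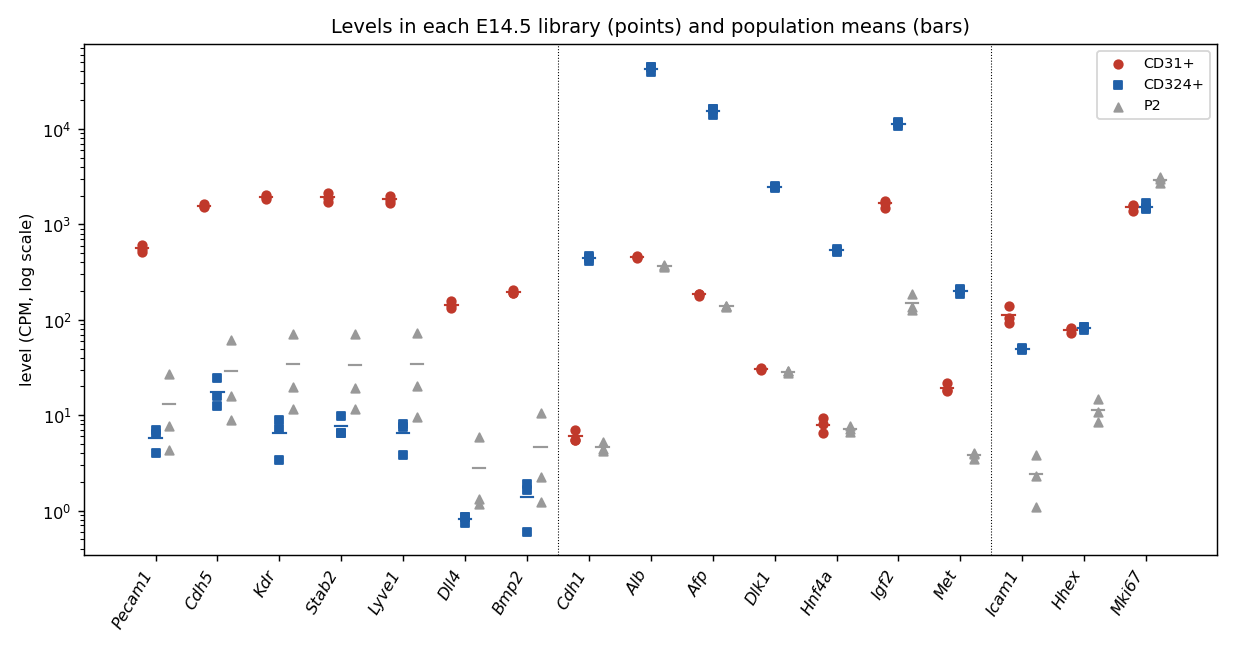
Level in CPM on a log scale of 17 genes in each library (points) with the mean of the population (bars), for CD31+ (red circles), CD324+ (blue squares), and P2 cells (grey triangles). Endothelial genes stand left, hepatic genes in the middle, and *Icam1*, *Hhex*, and *Mki67* right. *Hhex* and *Mki67* overlap between CD31+ and CD324+ libraries, and P2 replicate 2 has the highest P2 level of each endothelial gene shown.

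Upstream sequence of 3 core endothelial genes is shown because it holds short motifs of the factors that were themselves higher in CD31+ cells. The windows run from 250 bases before to 50 bases after the gene start in RefSeq's GRCm38.p6 annotation, 5′ to 3′ on the strand of the gene. Capitals mark every match, on either strand, to CAGGAAG (an ETS motif) or AACAATG (a SOX motif), and no match of these overlaps another.
*Robo4*, chr9:37401722-37402021, plus strand: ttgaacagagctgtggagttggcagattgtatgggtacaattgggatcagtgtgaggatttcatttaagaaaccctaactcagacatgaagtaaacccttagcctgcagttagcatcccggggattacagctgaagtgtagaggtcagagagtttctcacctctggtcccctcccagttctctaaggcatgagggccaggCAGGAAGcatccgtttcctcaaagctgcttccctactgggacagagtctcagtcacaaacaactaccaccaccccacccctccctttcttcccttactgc
*Egfl7*, chr2:26580833-26581132, plus strand: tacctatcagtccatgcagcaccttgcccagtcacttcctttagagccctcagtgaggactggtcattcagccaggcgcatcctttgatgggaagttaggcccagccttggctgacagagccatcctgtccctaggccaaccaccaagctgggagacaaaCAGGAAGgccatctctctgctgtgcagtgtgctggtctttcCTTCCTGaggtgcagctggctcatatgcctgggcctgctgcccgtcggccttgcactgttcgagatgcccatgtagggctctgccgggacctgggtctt
*Calcrl*, chr2:84425217-84425516, minus strand: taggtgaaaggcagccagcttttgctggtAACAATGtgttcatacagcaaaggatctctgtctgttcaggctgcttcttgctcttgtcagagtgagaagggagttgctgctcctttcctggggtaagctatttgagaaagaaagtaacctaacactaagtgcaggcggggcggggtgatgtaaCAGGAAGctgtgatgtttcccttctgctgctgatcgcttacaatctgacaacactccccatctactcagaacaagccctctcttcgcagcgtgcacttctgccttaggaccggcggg
The ETS letters start 50 bases before the gene start in *Robo4*, 90 and 49 bases before it in *Egfl7*, and 67 bases before it in *Calcrl*, and the SOX letters lie 221 bases before it in *Calcrl*. *Robo4*, an endothelial receptor of the roundabout family, had 201, 203, and 207 CPM in CD31+ and 0.245, 1.17, and 0.957 CPM in CD324+ libraries. *Egfl7*, a secreted endothelial matrix protein, had 125, 111, and 89.1 CPM in CD31+ and 0.380, 0.448, and 0.747 CPM in CD324+ libraries. *Calcrl*, the adrenomedullin receptor, had 610.0, 617, and 622 CPM in CD31+ and 6.01, 6.69, and 9.67 CPM in CD324+ libraries. Of the 12 core endothelial genes with a window in the table, 5 (41.7%) held the ETS letters, against 13% of all 27025 windows and 12.4% of the 11168 windows of tested genes, and 2 (16.7%) held the SOX letters, against 3.86% and 1.96%. Endothelial transcription factors held the ETS letters in 1 of 13 windows (7.69%) and the SOX letters in 0 of 13, and sinusoidal genes in 3 (25%) and 1 (8.33%) of 12. Among all genes beyond 2-fold higher in CD31+ cells the share with the ETS letters was 13.5% of 1687 windows. Other motifs were searched too. The GATA letters (AGATAA) were in 1 of the 12 core endothelial windows (8.33%) and in 0 of the 12 sinusoidal ones, against 11.4% of all windows. The HNF4 letters (CAAAGTCCA) were in 1 core endothelial window (8.33%), against 0.474% of all, and letters of HNF1, C/EBP, and FOXA in 0. The 3 genes were picked for display after their values and letters were seen, and a match to these letters is a description and not a binding site.

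Transcription factors of the endothelium followed. Of 24 listed, 21 were tested, and 17 were higher in CD31+ cells beyond 2-fold (median log2 fold change 4.69). The 3 SOXF genes and *Bcl6b*, a repressor found in endothelium, had the largest differences. *Sox7* had 48.3, 50.3, and 55.6 CPM in CD31+ and 0.0815, 0.120, and 0.163 CPM in CD324+ libraries (8.67 ± 0.49), and *Sox18* had 74.4, 89.4, and 71.7 CPM in CD31+ and 0.136, 0.299, and 0.187 CPM in CD324+ libraries (8.57 ± 0.86). *Sox17* differed by 7.81 ± 0.69 and *Bcl6b* by 7.77 ± 0.63. Among the ETS factors, *Erg* differed by 7.46 ± 0.64 and *Fli1* by 4.84 ± 0.45. *Lmo2* and *Meox2* did not pass the test. *Tal1*, which pairs with *Lmo2* in blood and endothelial precursors, had 66.2, 91.5, and 80.2 CPM in CD31+ and 29.0, 59.0, and 39.7 CPM in CD324+ libraries and 265, 244, and 267 CPM in P2 libraries, so its CD31+ level was below that of the erythroid progenitors. *Heyl*, a Notch target, was low throughout and higher in CD324+ cells (-1.17 ± 0.35, not beyond 2-fold).

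Sinusoidal genes were among the most abundant in CD31+ cells. Of 20 listed, which include scavenger and lectin receptors of liver sinusoids, all 20 were tested and 18 were higher in CD31+ cells beyond 2-fold (median 5.52). *Lyve1*, a hyaluronan receptor, had 1673, 1991, and 1803 CPM in CD31+ and 3.80, 8.16, and 7.57 CPM in CD324+ libraries (8.13 ± 0.79), and on the scale of CPM per kilobase of exon it stood first among the genes higher in CD31+ cells. *Stab2*, the scavenger receptor of hyaluronan and other ligands, had 2129.9, 1722, and 1891 CPM in CD31+ and 6.58, 6.55, and 9.81 CPM in CD324+ libraries (7.96 ± 0.70). *Flt4*, the VEGF-C receptor, differed by 7.997 ± 0.71, and *Oit3*, a secreted liver protein, by 7.92 ± 0.74. *Gata4*, a regulator of sinusoidal identity, had 325, 325, and 271 CPM in CD31+ and 11.8, 13.1, and 10.4 CPM in CD324+ libraries. *Clec4g*, a lectin of the mature sinusoid, was listed at no more than 1.16 CPM in these libraries. Other genes cover 79.8% of its span, and how much of its level this leaves out was not tested. *F8*, which encodes factor VIII, had 376, 395, and 428 CPM in CD31+ and 4.67, 6.64, and 6.63 CPM in CD324+ libraries. *Ctsl*, a lysosomal protease, went against the list with 265, 272, and 242 CPM in CD31+ and 448, 501, and 550.0 CPM in CD324+ libraries (-0.94 ± 0.12, not beyond 2-fold), and *Rspo3*, an enhancer of Wnt signalling, was higher in CD31+ cells but not beyond 2-fold (1.62 ± 0.35).

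Both arterial and venous genes were higher in CD31+ cells. Of 18 arterial genes 16 were tested, and 15 were higher in CD31+ cells beyond 2-fold (median 4.97). With at least 10 counts required in every library 7 were. That filter cannot test a gene such as *Gja4*, at 0 CPM in 1 CD324+ library. *Gja4*, which encodes connexin 37, had 32.8, 40.4, and 25.1 CPM in CD31+ and 0, 0.239, and 0.0234 CPM in CD324+ libraries (8.63 ± 0.97), and *Dll4*, the arterial Notch ligand, had 132, 157, and 144 CPM in CD31+ and 0.734, 0.867, and 0.864 CPM in CD324+ libraries (7.45 ± 0.60). *Notch4* differed by 6.63 ± 0.48. The exception was *Fbln5*, an elastic fibre protein, at 0.587 to 0.823 CPM in CD31+ and 1.63 to 1.82 CPM in CD324+ libraries. Of 7 venous genes 5 were higher in CD31+ cells beyond 2-fold. *Aplnr*, the apelin receptor, had 30.3, 46.6, and 37.3 CPM in CD31+ and 0.0544, 0.0897, and 0.304 CPM in CD324+ libraries (7.89 ± 0.78), *Flrt2* differed by 6.94 ± 0.66, and *Nrp2* by 6.69 ± 0.53. *Nr2f2*, the COUP-TFII factor of venous identity, had 354, 396, and 393 CPM in CD31+ and 42.1, 41.2, and 43.3 CPM in CD324+ libraries. *Ephb4*, the venous ephrin receptor, was also present in CD324+ cells, with 358, 388, and 284 CPM in CD31+ and 149.8, 145, and 142 CPM in CD324+ libraries (1.24 ± 0.45, not beyond 2-fold), a call lost whenever 1 of the 6 libraries compared was left out, with log2 fold changes of 1.06 to 1.29, and in the DESeq2 test, with 1.27.

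Hepatoblast genes lay on the other side. All 13 core hepatoblast genes were tested, and all 13 were higher in CD324+ cells beyond 2-fold (median log2 fold change -6.20). *Alb*, the albumin gene, had 39346, 44275, and 44173 CPM in CD324+ and 460.5, 455, and 442 CPM in CD31+ libraries (-6.56 ± 0.11). *Afp*, alpha-fetoprotein, had 13868, 16189, and 16306 CPM in CD324+ and 187, 187, and 178 CPM in CD31+ libraries (-6.39 ± 0.11). *Dlk1*, a Notch-related surface protein used to isolate hepatoblasts, had 2429, 2502, and 2438 CPM in CD324+ and 31.5, 29.5, and 30.3 CPM in CD31+ libraries (-6.33 ± 0.09). The spread over the 3 libraries of either population was small beside these differences. *Epcam*, an adhesion protein of epithelia, was low, with 1.09, 1.58, and 0.911 CPM in CD324+ and 0.204, 0.235, and 0.120 CPM in CD31+ libraries (-2.66 ± 0.69). *Cldn3*, a tight junction claudin, had 17 to 49 counts in CD324+ libraries and 0 counts in the 3 CD31+ libraries.

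Windows of 3 hepatic genes are shown for their motifs of hepatic factors, with the same bounds and build. Capitals mark every match, on either strand, to GTTAAT (part of an HNF1 site) or TTGCNNAA (a C/EBP motif), and again no match overlaps another.
*Alb*, chr5:90460620-90460919, plus strand: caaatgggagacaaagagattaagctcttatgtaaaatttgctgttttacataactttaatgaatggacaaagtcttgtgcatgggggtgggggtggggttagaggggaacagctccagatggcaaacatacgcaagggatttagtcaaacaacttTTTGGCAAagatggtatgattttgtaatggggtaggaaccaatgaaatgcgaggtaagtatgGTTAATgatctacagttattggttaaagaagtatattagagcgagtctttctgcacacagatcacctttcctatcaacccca
*Afp*, chr5:90490464-90490763, plus strand: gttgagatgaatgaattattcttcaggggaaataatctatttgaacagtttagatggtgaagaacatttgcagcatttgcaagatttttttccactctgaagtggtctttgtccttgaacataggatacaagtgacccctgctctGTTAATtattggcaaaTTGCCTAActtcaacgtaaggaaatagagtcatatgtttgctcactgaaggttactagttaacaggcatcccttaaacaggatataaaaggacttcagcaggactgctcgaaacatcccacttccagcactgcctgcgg
*Fgb*, chr3:83049814-83050113, minus strand: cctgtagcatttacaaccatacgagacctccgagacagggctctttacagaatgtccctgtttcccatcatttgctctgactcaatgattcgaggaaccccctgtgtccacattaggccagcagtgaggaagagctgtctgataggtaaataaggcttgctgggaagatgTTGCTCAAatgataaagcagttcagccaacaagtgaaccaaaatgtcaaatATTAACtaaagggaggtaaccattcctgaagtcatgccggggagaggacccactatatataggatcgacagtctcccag
The HNF1 letters begin 32 bases before the gene start in *Alb*, 105 in *Afp*, and 29 in *Fgb*, and the C/EBP letters 94, 89, and 80 bases before it. *Fgb*, the fibrinogen beta chain, had 2988, 3211, and 3335 CPM in CD324+ and 49.5, 37.4, and 32.8 CPM in CD31+ libraries. Of the 27 plasma protein genes with a window, 9 (33.3%) held the HNF1 letters, against 7.22% of all windows and 4.68% of those of tested genes. The C/EBP letters were in 11 of the 27 (40.7%) and in 8 of 18 windows of coagulation genes (44.4%), against 10.7% of all windows and 8.4% of those of tested genes. The C/EBP letters were in 0 and the HNF1 letters in 2 (10%) of 20 windows of hepatic transcription factors, and each was in 2 (20%) of 10 windows of core hepatoblast genes. The HNF1 letters were in 4 of the 18 coagulation windows (22.2%). The HNF4 letters (CAAAGTCCA) were in 0 windows of each of these 4 lists, against 0.474% of all windows. The FOXA letters (TGTTTAC) were in 2 plasma protein (7.41%), 2 coagulation (11.1%), 1 transcription factor (5%), and 1 core hepatoblast window (10%), against 3.52% of all. Over all 1645 windows of genes beyond 2-fold higher in CD324+ cells, 8.21% held the HNF1 letters and 11.9% the C/EBP letters. These 3 genes too were picked after their letters were seen.

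Hepatic transcription factors split into a large group that followed the hepatoblast genes and a small group that did not. All 29 were tested, and 21 were higher in CD324+ cells beyond 2-fold (median -4.71). *Hnf4a*, a nuclear receptor central to hepatocyte identity, had 551, 519, and 528 CPM in CD324+ and 9.30, 6.55, and 8.01 CPM in CD31+ libraries (-6.07 ± 0.15). *Creb3l3*, a membrane-bound factor of hepatic metabolism, differed by -6.40 ± 0.30, *Foxa3* by -6.10 ± 0.21, and *Sall4*, a factor of fetal hepatic progenitors, by -5.95 ± 0.15. The 3 FOXA genes lay between -6.10 and -5.52. *Prox1*, which is needed in hepatoblasts and also marks lymphatic endothelium, had 308, 243, and 299 CPM in CD324+ and 11.7, 8.52, and 12.1 CPM in CD31+ libraries (-4.71 ± 0.16). *Hhex*, a homeobox gene known from both lineages, had 83.9, 78.2, and 83.0 CPM in CD324+ and 73.5, 82.4, and 80.4 CPM in CD31+ libraries, which overlapped (-0.05 ± 0.16). *Zbtb20*, a repressor of *Afp* in later life, and *Nr5a2*, LRH-1, did not pass the test either, with log2 fold changes of 0.11 ± 0.13 and 0.43 ± 0.25, and neither did the low *Nr0b2*. The C/EBP family was divided. *Cebpa* had 181, 175, and 159 CPM in CD324+ and 9.29, 7.29, and 9.35 CPM in CD31+ libraries (-4.31 ± 0.14) and *Cebpb* differed by -1.86 ± 0.38, while *Cebpd* was higher in CD31+ cells, with 12.3, 16.9, and 23.1 CPM in CD31+ and 2.69, 4.36, and 3.92 CPM in CD324+ libraries (2.25 ± 0.26). *Esrrg*, an orphan nuclear receptor, was also higher in CD31+ cells beyond 2-fold (1.67 ± 0.25), and *Zhx2*, a repressor of *Afp*, by less than 2-fold (0.69 ± 0.11).

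Genes of secreted plasma proteins were higher in CD324+ cells. Of 36 listed, 29 were tested, all 29 were higher in CD324+ cells and 28 were so beyond 2-fold (median -6.25). *Serpinf2*, alpha-2-antiplasmin, had 1634, 1722, and 1708 CPM in CD324+ and 20.02, 15.9, and 15.3 CPM in CD31+ libraries (-6.63 ± 0.16), and *Hpx*, hemopexin, had 447, 522, and 515 CPM in CD324+ and 5.35, 5.46, and 4.79 CPM in CD31+ libraries (-6.57 ± 0.11). *Vtn*, vitronectin, differed by -6.53 ± 0.19. *Apoe*, apolipoprotein E, stood apart with 6978, 8361, and 7874 CPM in CD324+ and 1454, 1402, and 983 CPM in CD31+ libraries (-2.60 ± 0.23), and so did *Fn1*, fibronectin, with 5523, 4570.1, and 5173 CPM in CD324+ and 585, 545, and 476 CPM in CD31+ libraries (-3.25 ± 0.15). *Hp*, haptoglobin, was not beyond 2-fold (-1.48 ± 0.38), and its CD31+ values spread widely, at 4.65, 11.9, and 18.4 CPM. The 7 members that were not tested include *Serpina3k*, *Serpina1d*, and *Serpind1*, which lie inside another gene. They also include *Trf* and *Apoc2*, with 99.5% and 99.9% of their span covered by other genes.

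The CD31+ level of most of these genes was a similar share of their CD324+ level. For the 28 plasma protein genes beyond 2-fold, the CD31+ mean was between 1.01% and 16.5% of the CD324+ mean, with a median of 1.28%, and 23 of the 28 were below 2%. In P2 cells the same genes were at a median 0.897% of the CD324+ level, with all 28 below 2%. For 17 coagulation genes the medians were 1.36% in CD31+ and 0.926% in P2 cells, and for the 13 core hepatoblast genes 1.36% and 1.196%. The median was higher for hepatic transcription factors, at 2.76% in CD31+ and 1.35% in P2 cells over 21 genes. Genes above 5% in CD31+ cells include *Apoe*, *Fn1*, *Met*, *F5*, and *F10*. Whether RNA of CD324+ cells in the other sorts has a part in this share was not tested.

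**Figure D3:**
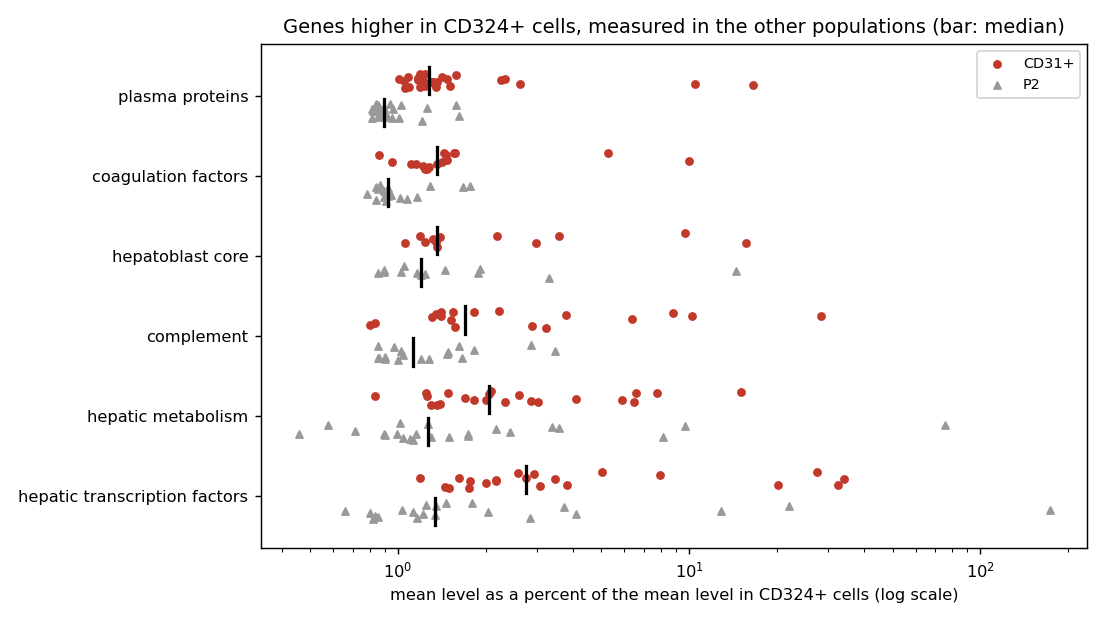
Mean level in CD31+ (red circles) and P2 cells (grey triangles) as a percent of the mean level in CD324+ cells (x axis, log scale), for the genes of 6 lists that were higher in CD324+ cells beyond 2-fold, with black bars at the medians. Plasma protein genes have medians of 1.28% and 0.897%, and *Apoe* and *Fn1* lie above the others in CD31+ cells. Genes with no CD31+ counts are not drawn.

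Blood coagulation was divided between the populations. All 26 genes were tested, and 17 were higher in CD324+ and 8 in CD31+ cells beyond 2-fold. Procoagulant factors lay mostly with the hepatoblasts, 13 of 15. *Klkb1*, prekallikrein, differed by -6.83 ± 0.28, *F9*, factor IX, by -6.68 ± 0.50, and the fibrinogen genes *Fga* and *Fgg* by -6.44 ± 0.15 and -6.49 ± 0.12. Other genes cover most of the span of *Klkb1*, as given above. The 2 procoagulant genes of CD31+ cells were *F8* (6.06 ± 0.39) and *Vwf*, von Willebrand factor, which carries factor VIII in plasma (3.92 ± 0.23). Of 6 anticoagulant genes 4 were higher in CD31+ cells. *Thbd*, thrombomodulin, had 24.3, 30.7, and 29.1 CPM in CD31+ and 0.163, 0.956, and 0.163 CPM in CD324+ libraries (6.10 ± 0.73), *Procr*, the protein C receptor, differed by 4.09 ± 0.58, *Tfpi*, tissue factor pathway inhibitor, by 4.01 ± 0.14, and *Pros1*, protein S, by 2.33 ± 0.29. The remaining anticoagulant genes, *Proc*, protein C (-6.20 ± 0.16), and *Serpinc1*, antithrombin (-6.08 ± 0.18), were higher in CD324+ cells. Both plasminogen activators, *Plau* (6.20 ± 0.62) and *Plat* (2.06 ± 0.39), were higher in CD31+ cells, whereas plasminogen itself, *Plg*, was higher in CD324+ cells (-6.36 ± 0.16). With at least 10 counts required in every library, 5 genes of the list were higher in CD31+ cells.

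Most complement genes were higher in CD324+ cells. Of 26 listed, 24 were tested, and 18 were higher in CD324+ cells beyond 2-fold (median -5.03). *C1s1* had 11.8, 12.3, and 13.2 CPM in CD324+ and 0.0511, 0.185, and 0.0753 CPM in CD31+ libraries (-6.88 ± 0.45), and the factor I gene *Cfi* and *C8b* differed by -6.26 ± 0.16 and -6.21 ± 0.11. *Cd55*, decay accelerating factor, was the 1 member beyond 2-fold in CD31+ cells, with 179, 201, and 175 CPM in CD31+ and 4.92, 9.41, and 5.88 CPM in CD324+ libraries (4.78 ± 0.22), and *Cd59a*, which blocks the membrane attack complex, was higher by 1.25 ± 0.17, not beyond 2-fold. *C1qb*, *C2*, and *C6* did not pass the test. Other genes cover most of the span of *C1s1* and *C2*, as given above. *C1qc*, 1 of the 18 genes, is also a macrophage marker, and its CD31+ mean was 28.4% of its CD324+ mean. The part of macrophages in its level was not tested.

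Genes of hepatic metabolism followed the same direction. Of 29 listed, 27 were tested, and 23 were higher in CD324+ cells beyond 2-fold (median -5.39), or 12 with at least 10 counts required in every library. *Cyp7a1*, the rate-limiting enzyme of bile acid synthesis, had 3.91, 4.06, and 3.92 CPM in CD324+ and 0, 0.0840, and 0.0151 CPM in CD31+ libraries (-6.82 ± 0.74). *Hfe2*, which encodes the BMP co-receptor hemojuvelin, had 42.0, 42.8, and 38.7 CPM in CD324+ and 0.562, 0.420, and 0.557 CPM in CD31+ libraries (-6.32 ± 0.17). *Cyp2e1*, an enzyme of the mature hepatocyte, was near the limit of counting, with 14 to 16 counts in CD324+ libraries and 0 in the 3 CD31+ libraries. *Slc10a1*, the bile acid importer, and *Tdo2*, a tryptophan oxidase, did not pass the test.

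The biliary list had no common direction. Of 12 tested genes 5 were higher in CD324+ and 2 in CD31+ cells beyond 2-fold, or 2 and 1 with at least 10 counts in every library. The transcription factors *Onecut1* (-5.64 ± 0.15) and *Sox9* (-4.85 ± 0.57), which act in hepatoblasts before bile ducts form, were higher in CD324+ cells, as was *Krt23* (-5.25 ± 0.72). *Krt7* and *Krt19*, the keratins of bile ducts, did not pass the test, and none of these 6 libraries exceeded 1.05 CPM for either. *Sox4* was higher in CD31+ cells, with 68.5, 84.0, and 77.9 CPM in CD31+ and 6.58, 9.12, and 4.48 CPM in CD324+ libraries (3.52 ± 0.23), and so was *Cftr*, at 1.47 to 2.61 CPM against at most 0.272 CPM. *Cd24a*, the gene of an antigen of the P2 gate, had 83.6, 175, and 121 CPM in CD324+ and 48.8, 79.6, and 84.7 CPM in CD31+ libraries, and these values overlapped.

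Junction genes separated by type. All 9 of endothelial type were higher in CD31+ cells beyond 2-fold. *Cldn5*, the claudin of endothelial tight junctions, had 135, 156, and 126 CPM in CD31+ and 0.0815, 0.508, and 0.887 CPM in CD324+ libraries (8.09 ± 0.72), and *Esam* differed by 7.53 ± 0.70. Of 17 tested genes of epithelial type, 15 were higher in CD324+ cells beyond 2-fold. *Cldn1* had 150.4, 157, and 172 CPM in CD324+ and 1.26, 1.56, and 2.08 CPM in CD31+ libraries (-6.60 ± 0.20), and *Gjb1*, the connexin 32 of hepatocytes, had 119, 115, and 119 CPM in CD324+ and 2.32, 1.08, and 1.26 CPM in CD31+ libraries (-6.24 ± 0.28). Of 6 components used by both tissues, 2 were higher in CD324+ and 1 in CD31+ cells beyond 2-fold. *Ctnnb1*, beta-catenin, had 209, 261, and 235 CPM in CD31+ and 257, 272, and 278 CPM in CD324+ libraries (-0.20 ± 0.09, not called), and *F11r* did not pass the test. *Ocln*, occludin (-4.80 ± 0.10), and *Tjp3*, ZO-3 (-2.34 ± 0.37), were higher in CD324+ cells, and *Tjp1*, ZO-1, was higher in CD31+ cells (1.65 ± 0.17).

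In the extracellular matrix, 10 of 31 tested genes were higher in CD31+ and 6 in CD324+ cells beyond 2-fold. The basement membrane genes *Lama4* (7.14 ± 0.64), *Col4a2* (5.30 ± 0.48), and *Col4a1* (4.60 ± 0.59) were higher in CD31+ cells. *Col4a1* had 2197, 1888, and 1577 CPM in CD31+ and 72.2, 84.5, and 77.3 CPM in CD324+ libraries, and *Sparc*, a collagen-binding matrix protein, had 1023, 1201, and 1094 CPM in CD31+ and 16.1, 33.4, and 23.7 CPM in CD324+ libraries (5.50 ± 0.55). The hepatoblast side held *Vtn*, *Itga3* (-4.40 ± 0.21), *Itgb5* (-3.28 ± 0.16), a subunit of a vitronectin receptor, and *Fn1*. *Itga6*, a laminin receptor subunit, was higher in CD31+ cells (4.84 ± 0.21). *Agrn*, *Lama5*, *Lamb2*, *Col4a5*, and *Itgb4* did not pass the test, nor did their log2 fold changes exceed 0.62 in size.

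Proliferation genes differed little in size. Of 30 cell cycle genes, 4 were higher in CD31+ and 13 in CD324+ cells at an adjusted p below 0.05. Beyond 2-fold, 1 was higher in CD31+ and 2 were higher in CD324+ cells (median -0.24). *Mki67*, the proliferation antigen Ki-67, had 1390.5, 1602, and 1547 CPM in CD31+ and 1469.9, 1659, and 1442 CPM in CD324+ libraries (-0.01 ± 0.10) and 2975, 2702, and 3129 CPM in P2 libraries. The libraries of both CD54+ populations lay below those of the erythroid progenitors and overlapped each other. *Ccne1*, cyclin E1, had 113, 131, and 129 CPM in CD324+ and 36.9, 41.5, and 29.9 CPM in CD31+ libraries (-1.78 ± 0.13), and *Cdkn1c*, the inhibitor p57, had 286, 325, and 301 CPM in CD324+ and 76.0, 93.3, and 70.3 CPM in CD31+ libraries (-1.93 ± 0.15). *Cdkn2c*, the inhibitor p18, was higher in CD31+ cells (1.46 ± 0.16), and without CD31+ replicate 2 no gene of the list was so beyond 2-fold.

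**Figure D4:**
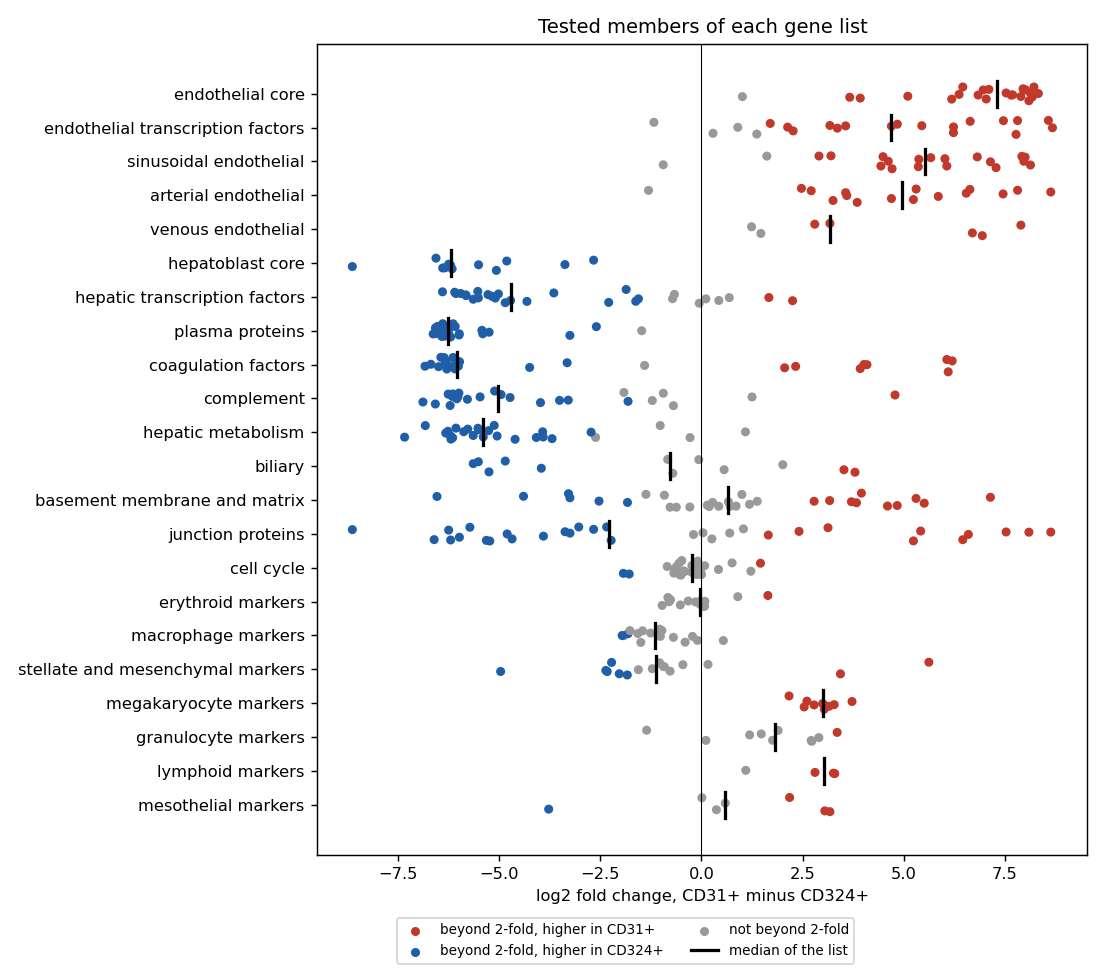
Log2 fold change (CD31+ minus CD324+, x axis) of each tested member of 22 gene lists, red for genes higher in CD31+ and blue for genes higher in CD324+ cells beyond 2-fold, grey for the rest, with a black bar at the median of the list. Coagulation, junction, and matrix genes spread to both sides, and cell cycle genes lie around -0.24.

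Markers of other cell types were read in the same libraries, since either gate could hold other cells. All 10 megakaryocyte genes were higher in CD31+ cells beyond 2-fold (median 3.01), and their summed level was 447.8 to 814.9 CPM in CD31+ and 69.9 to 85.8 CPM in CD324+ libraries. *Itga2b*, which encodes CD41, had 156, 199.6, and 178 CPM in CD31+ and 12.96, 12.8, and 14.7 CPM in CD324+ libraries (3.72 ± 0.32), and *Gp1ba* differed by 3.03 ± 0.24. Megakaryocytes also express *Vwf* and *Selp*. The part of such cells in the CD31+ values of these genes, and of the ligands and receptors given below, was not tested. Granulocyte genes summed to 139.4 to 607.3 CPM in CD31+ libraries and to 10.8, 11.8, and 126.7 CPM in CD324+ libraries, highest in CD31+ replicate 3 and in CD324+ replicate 2. *Mpo*, myeloperoxidase, had 95.7, 183, and 398 CPM in CD31+ and 3.45, 59.8, and 3.39 CPM in CD324+ libraries and was the 1 member of 10 beyond 2-fold, a call lost without CD31+ replicate 3.
Macrophage genes summed to 80.7 to 168.9 CPM in CD31+ and 193.7 to 335.9 CPM in CD324+ libraries, and 2 of 16 tested, *Csf1r* and *C1qc*, were higher in CD324+ cells beyond 2-fold. Erythroid genes overlapped, with sums of 465.9 to 878.4 CPM in CD31+ and 637.5 to 1096.6 CPM in CD324+ libraries, against 2334.3 to 2603 CPM in P2 libraries, and 1 of 15 tested, *Myb*, was higher in CD31+ cells beyond 2-fold (1.64 ± 0.26). Of 16 stellate and mesenchymal genes 6 were higher in CD324+ cells beyond 2-fold. *Reln*, reelin, made up most of their level, with 1057, 883, and 988 CPM in CD324+ and 32.2, 24.97, and 36.9 CPM in CD31+ libraries (-4.96 ± 0.17), while *Pdgfrb* was at 10.3 to 11.7 CPM and *Des* at 3.05 to 4.20 CPM in CD324+ libraries. *Nes*, nestin, and *Hgf* of the same list were higher in CD31+ cells beyond 2-fold, with 5.62 ± 0.55 and 3.44 ± 0.31. The summed level of the list was 1129.9 to 1187.8 CPM in CD324+ and 437.5 to 500.5 CPM in CD31+ libraries, but without *Reln* the direction turned, to 130.5 to 246.4 against 400.6 to 468.4 CPM. Without both *Reln* and *Nes* the sums were 124.1 to 239.2 CPM in CD324+ and 82.1 to 103.4 CPM in CD31+ libraries. Among 7 tested mesothelial genes *Podxl*, *Lrrn4*, and *Gpm6a* were higher in CD31+ and *Alcam* in CD324+ cells, and *Wt1* did not pass the test. Whether mesothelial cells have a part in these values was not tested. The 4 tested lymphoid genes summed, with 6 untested ones, to at most 23.5 CPM.

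Ligands and receptors were read on each side from 153 listed pairs, of which 130 had both genes tested. Of 122 ligand genes, 17 of them not tested, 42 were higher in CD31+ and 34 in CD324+ cells beyond 2-fold. Of 108 receptor genes, 4 of them not tested, the counts were 35 and 24. In 16 pairs the ligand was higher in CD324+ and the receptor in CD31+ cells, and in 12 pairs the ligand was higher in CD31+ and the receptor in CD324+ cells. In 25 pairs both genes were higher in CD31+ and in 10 pairs both in CD324+ cells. With at least 10 counts required in every library, 10 pairs ran from CD324+ to CD31+ cells and 15 lay within CD31+ cells. The pairs share genes and were chosen with results known, so these counts are descriptions, and RNA levels do not show binding or signalling.

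**Figure D5:**
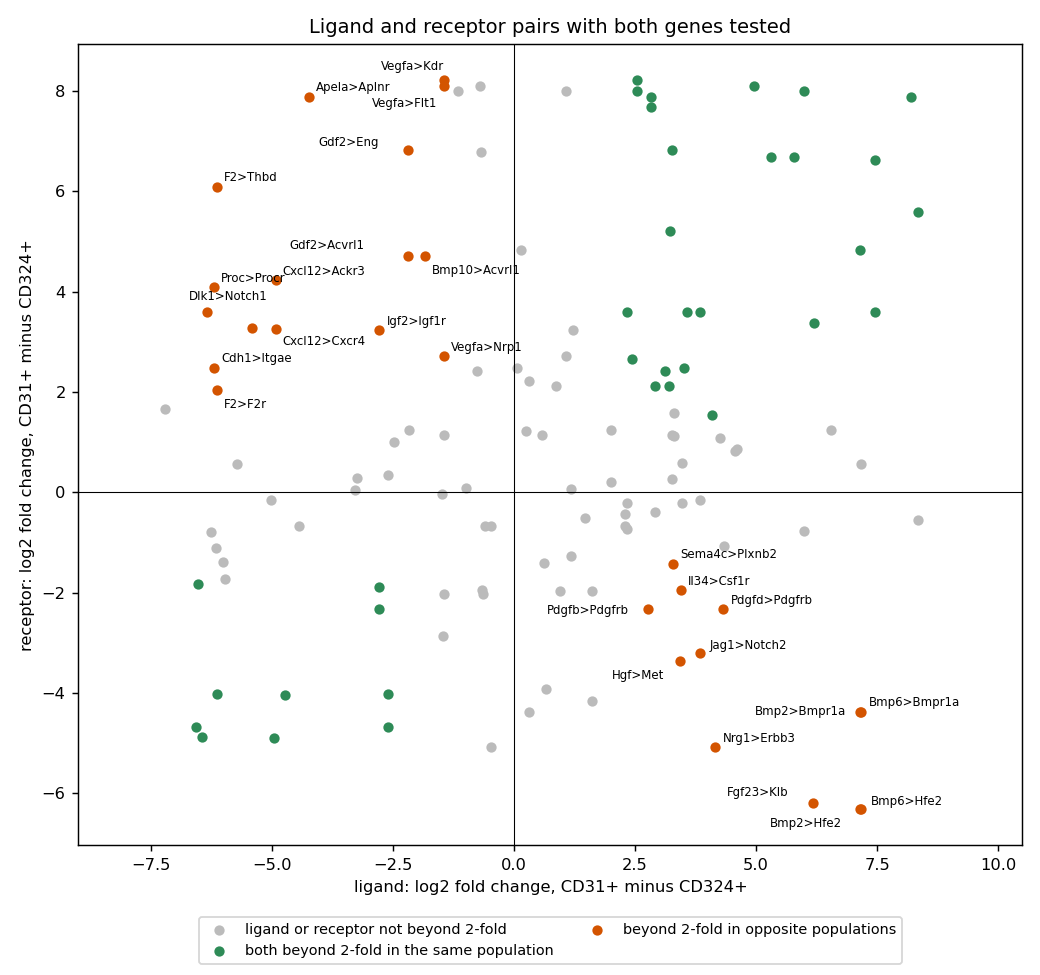
Log2 fold change of the receptor (y axis) against that of its ligand (x axis), both CD31+ minus CD324+, for the 130 pairs with both genes tested. Orange points are the 28 pairs beyond 2-fold in opposite populations, most of them labelled with ligand and receptor, green points the 35 pairs beyond 2-fold in the same population, and grey points the rest.

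*Vegfa* and its receptors lay on opposite sides. *Vegfa* was higher in CD324+ cells, with 125, 105, and 124 CPM in CD324+ and 39.0, 40.1, and 50.4 CPM in CD31+ libraries (-1.45 ± 0.12), though it was present in both. Its receptors *Kdr* and *Flt1* were endothelial, *Flt1* with 889.9, 878, and 928 CPM in CD31+ and 3.02, 3.56, and 3.20 CPM in CD324+ libraries (8.11 ± 0.75), and *Nrp1*, the co-receptor, had 627, 612, and 586 CPM in CD31+ and 99.1, 87.1, and 92.3 CPM in CD324+ libraries (2.71 ± 0.42). *Vegfc*, the ligand of *Flt4*, was higher in the CD31+ cells themselves (2.54 ± 0.24), and so was *Pgf*, placental growth factor, at 2.09 to 3.26 CPM. *Angpt1*, the activating ligand of TIE2, was higher in CD31+ cells with 17.4, 19.2, and 24.3 CPM in CD31+ and 2.01, 3.98, and 2.66 CPM in CD324+ libraries (2.82 ± 0.29), alongside its receptor *Tek* (7.89 ± 0.73) and *Tie1* (7.69 ± 0.77).

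Notch genes lay mostly on the endothelial side. *Notch1* had 367, 393, and 389.9 CPM in CD31+ and 33.3, 31.6, and 30.5 CPM in CD324+ libraries (3.59 ± 0.54), and the ligands *Dll4*, *Jag1* (3.85 ± 0.27), *Jag2* (3.56 ± 0.43), and *Dll1* (2.34 ± 0.36) were higher in the same cells. *Notch3* was not beyond 2-fold on either side (-0.16). *Notch2*, the receptor known for bile duct formation, was instead higher in CD324+ cells, with 232, 199, and 204 CPM in CD324+ and 21.2, 22.4, and 25.3 CPM in CD31+ libraries (-3.20 ± 0.12). *Jag1*, the ligand of that step, was at 27.5, 29.5, and 27.2 CPM in CD31+ and 2.31, 1.88, and 1.66 CPM in CD324+ libraries. *Dlk1*, a non-canonical ligand, was higher in CD324+ cells as given above.

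The BMP family showed both directions. *Bmp2* had 192, 205, and 191 CPM in CD31+ and 0.598, 1.64, and 1.89 CPM in CD324+ libraries (7.14 ± 0.78) and *Bmp6* had 83.5, 73.8, and 89.7 CPM in CD31+ and 0.408, 0.747, and 0.560 CPM in CD324+ libraries (7.17 ± 0.60), and both are known as endothelial signals for hepcidin in the adult liver. The receptor *Bmpr1a* had 65.3, 70.8, and 79.4 CPM in CD324+ and 3.51, 2.81, and 4.06 CPM in CD31+ libraries (-4.37 ± 0.15), and the co-receptor *Hfe2* and *Hamp*, the hepcidin gene, at 3.59, 3.71, and 6.59 CPM, were likewise higher in CD324+ cells. In the other direction, *Gdf2*, which encodes BMP9, had 4.38, 7.32, and 7.496 CPM in CD324+ and 1.14, 1.06, and 2.02 CPM in CD31+ libraries (-2.18 ± 0.31), and *Bmp10*, at 0.897 to 1.61 CPM, was low in CD324+ cells and lower in CD31+ cells (-1.85 ± 0.45). Their endothelial receptors had higher CD31+ levels, *Acvrl1*, ALK1, with 45.6, 50.01, and 39.9 CPM in CD31+ and 1.36, 1.67, and 2.13 CPM in CD324+ libraries (4.71 ± 0.46) and *Eng*, endoglin, with 799, 845, and 743 CPM in CD31+ and 6.01, 7.83, and 7.08 CPM in CD324+ libraries (6.84 ± 0.35). *Tgfb1* (3.27 ± 0.18), *Tgfb2* (2.44 ± 0.24), and the co-receptor *Tgfbr3* (2.65 ± 0.11) were all higher in CD31+ cells.

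Growth factors for epithelium were found in CD31+ cells. *Hgf*, hepatocyte growth factor, had 16.2, 15.6, and 16.9 CPM in CD31+ and 0.897, 1.94, and 1.66 CPM in CD324+ libraries (3.44 ± 0.31), and its receptor *Met* had 204, 187, and 209 CPM in CD324+ and 18.4, 17.9, and 21.6 CPM in CD31+ libraries (-3.37 ± 0.11). *Nrg1*, neuregulin 1, had 23.2, 24.7, and 22.9 CPM in CD31+ and 1.58, 1.73, and 0.701 CPM in CD324+ libraries (4.16 ± 0.32), and *Erbb3*, its receptor, had 63.9, 56.8, and 61.7 CPM in CD324+ and 1.67, 1.90, and 1.78 CPM in CD31+ libraries (-5.09 ± 0.12). *Fgf23* was low and uneven in CD31+ libraries, at 1.41, 0.807, and 5.96 CPM (6.18 ± 1.29). *Klb*, listed with it, had 159.8, 149.9, and 166 CPM in CD324+ libraries. *Klb* is known as the co-receptor of FGF21, whose gene was not tested, and not as that of FGF23. The listed pair of *Fgf23* with *Klb* stays in the counts above. *Wnt2* (2.90 ± 0.46) and *Wnt9b* (3.20 ± 0.62), endothelial Wnt ligands of the adult liver, were higher in CD31+ cells at no more than 4.89 CPM, as was the receptor *Fzd4* (2.11 ± 0.34). *Lgr5* and *Lgr4*, receptors of R-spondins, were higher in CD324+ cells (-4.16 ± 0.22 and -1.97 ± 0.11). *Pdgfb* (2.76 ± 0.55), *Pdgfd* (4.32 ± 0.25), *Il34* (3.44 ± 0.63), and *Sema4c* (3.29 ± 0.44) of CD31+ cells met higher *Pdgfrb* (-2.33 ± 0.23), *Csf1r* (-1.96 ± 0.24), and *Plxnb2* (-1.43 ± 0.11) in CD324+ cells. *Pdgfrb* and *Csf1r* are also markers of mesenchymal cells and macrophages, and the part of such cells in these pairs was not tested.

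*Igf2*, the fetal growth factor, was among the 10 genes with the highest level per kilobase of exon in CD324+ cells, with 11668, 10765, and 11656 CPM in CD324+ and 1688, 1770.5, and 1501 CPM in CD31+ libraries (-2.78 ± 0.15). *Igf1r*, its signalling receptor, had 281, 227, and 249 CPM in CD31+ and 21.2, 29.6, and 29.5 CPM in CD324+ libraries (3.24 ± 0.15). *Igf2r*, the clearance receptor, and *Insr* were higher in CD324+ cells, with log2 fold changes of -1.88 ± 0.09 and -2.32 ± 0.10. The 3 receptors therefore did not share a side.

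Several cytokines that act on blood cells were higher in CD324+ cells. *Cxcl12*, the chemokine that retains blood progenitors, had 162, 160.2, and 160.0 CPM in CD324+ and 4.89, 5.16, and 5.79 CPM in CD31+ libraries (-4.93 ± 0.12), with its receptors *Cxcr4* (3.25 ± 0.68) and *Ackr3* (4.22 ± 0.45) higher in CD31+ cells. *Thpo*, thrombopoietin, had 17.9, 14.7, and 15.4 CPM in CD324+ and 0.562, 0.252, and 0.316 CPM in CD31+ libraries (-5.41 ± 0.31). *Il7* had 4.05, 5.05, and 4.16 CPM in CD324+ and 0.204, 0.218, and 0.256 CPM in CD31+ libraries (-4.27 ± 0.41). *Kitl*, stem cell factor, was present in both populations, with 144, 134, and 148 CPM in CD324+ and 80.9, 81.0, and 90.3 CPM in CD31+ libraries (-0.76 ± 0.22, not beyond 2-fold), and *Epo*, erythropoietin, had 12.5, 7.59, and 8.92 CPM in CD324+ and 5.08, 4.60, and 4.95 CPM in CD31+ libraries (-0.99 ± 0.19, not beyond 2-fold). The receptor *Kit* had 48.0, 57.4, and 65.3 CPM in CD31+ and 6.90, 12.2, and 12.9 CPM in CD324+ libraries (2.41 ± 0.22) and 281, 291, and 337 CPM in P2 libraries. *Cxcr4* and *Kit* are also blood cell genes, and the summed levels of megakaryocyte and granulocyte markers were also higher in CD31+ libraries, as given above. Their part in these values was not tested. *Csf1* was higher in CD324+ cells by less than 2-fold (-0.65 ± 0.21).

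Several vasoactive and guidance pairs had both genes higher in CD31+ cells. *Apln*, apelin, at 4.97 to 6.49 CPM (8.20 ± 0.74), and its receptor *Aplnr* were both endothelial, while *Apela*, a further ligand of the receptor, reached at most 0.911 CPM, in CD324+ cells. *Edn1*, endothelin 1, had 15.96, 18.6, and 28.3 CPM in CD31+ and 0.0272, 0.149, and 0.0234 CPM in CD324+ libraries (8.34 ± 0.65), and *Ednrb* differed by 5.59 ± 0.58. *Slit2* (5.98 ± 0.37) with *Robo4*, and *Sema3f* (5.78 ± 0.49) and *Sema3g* (5.30 ± 0.49) with *Nrp2*, were likewise higher in CD31+ cells. *Osm*, oncostatin M, was low at 1.04 to 1.64 CPM beside *Osmr* (5.21 ± 0.33).

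Pairs within the hepatoblast fraction included receptors of lipoprotein uptake. *Apob* had 5612, 5747, and 6130.1 CPM in CD324+ and 84.6, 81.4, and 82.9 CPM in CD31+ libraries (-6.13 ± 0.10), and *Lrp1*, a receptor of *Apoe* and of hemopexin, had 815, 648, and 712 CPM in CD324+ and 26.1, 25.1, and 33.5 CPM in CD31+ libraries (-4.68 ± 0.15). *Vldlr* (-4.90 ± 0.26) accompanied its ligand *Reln*. *Reln* is also in the list of stellate and mesenchymal markers, and the part of such cells in this pair was not tested. *Agt*, angiotensinogen, had 334, 358, and 358 CPM in CD324+ and 4.07, 3.999, and 3.93 CPM in CD31+ libraries (-6.45 ± 0.13) with its receptor *Agtr1a* (-4.88 ± 0.32), and *Mst1*, macrophage-stimulating protein (-4.72 ± 0.40), stood with *Mst1r* (-4.05 ± 0.47). *F2*, prothrombin, was higher in CD324+ cells (-6.14 ± 0.21), and its receptor *F2r* in CD31+ cells, with 200.5, 292, and 317 CPM in CD31+ and 60.005, 68.8, and 68.3 CPM in CD324+ libraries (2.04 ± 0.16).

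Ranked over all genes with no overlap between libraries and a level of at least 20 CPM, the 10 largest differences toward CD31+ cells were *Gpihbp1*, *Sox7*, *Gja4*, *Sox18*, *Fabp4*, *Fam167b*, *Edn1*, *Clec14a*, *Gap43*, and *Tmem132e*, with log2 fold changes from 8.26 to 8.80. *Gpihbp1*, which carries lipoprotein lipase across capillary endothelium, had 46.8, 44.6, and 41.1 CPM in CD31+ and 0, 0.120, and 0.163 CPM in CD324+ libraries. *Fabp4*, a fatty acid binding protein of capillaries, had 163, 168, and 148 CPM in CD31+ and 0.190, 0.538, and 0.560 CPM in CD324+ libraries. The 10 toward CD324+ cells were *Apcs*, *Klkb1*, *Serpina11*, *Phlda2*, *Apof*, *Ripk4*, *Dact2*, *Gulo*, *Serpinf2*, and *Cldn1*, from -7.18 to -6.60. *Gulo*, the last enzyme of vitamin C synthesis, had 278, 287, and 269 CPM in CD324+ and 2.59, 2.52, and 3.15 CPM in CD31+ libraries. *Phlda2*, an imprinted gene, had 28.4, 27.3, and 26.5 CPM in CD324+ and 0.409, 0.0672, and 0.271 CPM in CD31+ libraries. *Mest*, another imprinted gene, was instead among the 10 genes with the highest level per kilobase of exon in CD31+ cells, with 1375, 1686, and 1466 CPM in CD31+ and 12.5, 26.5, and 22.1 CPM in CD324+ libraries (6.21 ± 0.66).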

How the data were processed

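Sorted cells of fetal livers at E14.5 were compared, 3 CD31+ against 3 CD324+ libraries, with 3 P2 libraries in the same fit. RNA had been made into libraries with a stranded total RNA kit for low input, after removal of ribosomal fragments. Per the labels and the submitters' processing notes, reads were trimmed (cutadapt 1.11), aligned to GRCm38 (STAR 2.5.0a), and counted per gene (featureCounts 1.4.6-p3). The authors deposited whole-number raw counts per gene, with no normalization, and beside them a normalized value made with DESeq2, treated here as a score and used only to recover their scaling factors. Each file holds 38127 genes, of which 37932 identifiers were found in GENCODE release 21 for mouse.

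Counts were tested with edgeR 4.0.16 in R 4.3.3, with TMM scaling, its default filter on low counts, the quasi-likelihood test, and glmTreat beyond 2-fold, at an adjusted p below 0.05 after Benjamini-Hochberg adjustment over all 15461 genes tested. The fit was run on simulated data in which few genes differed and the changes were balanced in direction. Most genes differ here, so that run does not test the scaling for this comparison. Standard errors and p-values rest on a spread estimated for each gene over all 9 libraries of the fit, P2 included. They are not the spread of the 6 compared libraries alone. Core endothelial genes summed to 132.9 to 493.1 CPM in P2 libraries, and this spread enters the standard errors of these genes. The total count of 40714017 to 56719068 in the 6 libraries sets the counting precision, and 3 genes, *Cdk8*, *Zc3h7a*, and *Il1rapl1*, held 14.2% to 23.1% of it.

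The gene lists, pairs, and motifs were chosen with earlier results of these data known. Named were the sorting antigens, the 4 members of each list with the largest change in each direction beyond 2-fold, members not called or against their list, pairs with both genes beyond 2-fold, and the 10 largest changes and the 10 highest levels on each side. Largest changes needed at least 20 CPM in the higher population and no overlap between libraries. Other members named as examples were chosen after their values were seen. Alternatives were other scalings, DESeq2 1.42.0, other filters, other sets of libraries, the replicate number as a block, leaving out the 7 genes above 1% of any library, and leaving out each of the 9 libraries in turn. Windows upstream of genes came from RefSeq (GRCm38.p6). Values of some list and pair genes are not reported here.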

Additional observations from a re-analysis of the deposited data

How the results depend on the processing

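Under the alternatives, between 8418 and 10335 genes were called at an adjusted p below 0.05 and between 3188 and 4757 beyond 2-fold, the lowest of each with at least 10 counts required in every library, which tests fewer genes. That filter left 10 pairs from CD324+ to CD31+ cells, 15 pairs within CD31+ cells, 7 arterial and 5 coagulation genes higher in CD31+ cells, 12 metabolic genes higher in CD324+ cells, and 1 and 2 biliary genes higher in CD31+ and CD324+ cells. It leaves genes nearly absent from 1 population untested. Of the list and pair genes that it tested, 410 had the same outcome at an adjusted p below 0.05, 1 lost the call, and 4 gained it. Complement genes beyond 2-fold in CD31+ cells numbered 2 with the authors' factors, with only the 6 libraries compared, and under the replicate block. Cell cycle genes beyond 2-fold in CD31+ cells numbered 2 with the authors' factors and under the replicate block, and hepatic transcription factors higher in CD31+ cells numbered 1 in the DESeq2 test. The causes of these moves of 1 gene were not tested.

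Leaving out each library in turn gave 9305 to 10257 genes called, 4311 to 4757 beyond 2-fold, 15 to 16 pairs from CD324+ to CD31+ cells, 12 to 14 in the other direction, and 24 to 28 within CD31+ cells. Cell cycle genes higher in CD31+ cells numbered 0 to 2 (0 without CD31+ replicate 2, 2 without CD31+ replicate 1), complement genes 1 to 2 (2 without P2 replicate 2), and hepatic transcription factors 1 to 2 (1 without CD324+ replicate 2). *Hba-a2*, a globin gene, had a log2 fold change of 0.06 that ranged from -0.85 without CD31+ replicate 3 (edgeR, adjusted p = 0.0014) to 0.38 without CD31+ replicate 1. Of 458 called list and pair genes, 406 kept direction and call in every alternative that tested them and 52 lost the call in at least 1.

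Replicate numbers were not used as pairs in the main fit, and whether they pair the libraries was not tested. Deviations of same-numbered libraries correlated at 0.21, 0.13, and 0.05, and those of differently numbered libraries at -0.19 to 0.07. CD324+ replicate 3 correlated best with CD31+ replicate 2 (0.07), and each other CD31+ or CD324+ library with its own number. With the replicate block, 10326 genes were called, 4621 beyond 2-fold. *Cldn3*, *Cyp2e1*, and *Apela* had few counts or none in CD31+ cells, which limits the precision of their fold changes.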
